A study of Mus musculus with 2 samples.

Results

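The microRNA (miRNA) genes described here are Mir673, Mir493, Mir337, Mir540, Mir665, Mir431, Mir433, Mir127, Mir434 and Mir370, which lie upstream of Mir379 in the imprinted Dlk1-Dio3 locus of mouse chromosome 12, around the gene Rtl1. They were taken by name from the mouse GENCODE annotation and by no limit on a measured value, but with earlier results of these data known. All 10 had a row among the 1973 miRNA genes in the count tables. The tables come from microRNA-seq, which reads RNA of the length of mature miRNAs, in the forebrain of B6NCrl mouse embryos at embryonic day 11.5. There was 1 group with 2 libraries and no treated, mutant or control group. Replicate 1 held the pooled forebrains of 109 embryos and replicate 2 those of 88 embryos, with males and females in each pool and the same donor entry in the labels for both. A p-value between them therefore measures the difference of these libraries only.

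Mature miRNAs are cut from RNA hairpins and guide Argonaute proteins to messenger RNAs, mostly by pairing through the seed, bases 2 to 8 of the miRNA. Partial pairing represses the messenger, and pairing over the whole miRNA allows Argonaute 2 to cut it. The Dlk1-Dio3 locus is imprinted: its protein genes Dlk1, Rtl1 and Dio3 are expressed from the paternal chromosome, and its noncoding RNAs Meg3, Rian and Mirg, with the miRNAs and small nucleolar RNAs along them, from the maternal one. Rtl1 is a gene derived from a retrotransposon and is known for its role in the capillaries of the mouse placenta. The miRNAs encoded on the strand opposite to it are known to guide the cutting of its messenger RNA in mice.

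In build mm10, all 10 genes lie on the plus strand of chromosome 12, within 46.3 kb. Mir673 (ENSMUSG00000076316) spans 109571990-109572080 and begins 263 bases after the annotated end of Meg3. Mir493 (ENSMUSG00000077025) follows at 109580233-109580315. Mir337 (ENSMUSG00000065526), Mir540 (ENSMUSG00000072900) and Mir665 (ENSMUSG00000076313) stand close together at 109585789-109585885, 109586080-109586146 and 109586314-109586407, with 194 and 167 bases between them. These 5 genes overlap no host gene. They lie on the Meg3 side of Rtl1, a gene of the minus strand that spans 109589193-109600330. Mir431 (ENSMUSG00000070080, 109590447-109590537), Mir433 (ENSMUSG00000070072, 109591715-109591838), Mir127 (ENSMUSG00000070076, 109592846-109592915) and Mir434 (ENSMUSG00000070133, 109594506-109594599) lie wholly within the coding exon of Rtl1, on the opposite strand. Mir370 (ENSMUSG00000065433, 109618258-109618336) comes 23658 bases after Mir434, in an intron of Rian on the same strand. Another 90.7 kb separate it from Mir379.

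Mir431, Mir433, Mir127 and Mir434 are shown by their mature sequences, because each is the complement of a stretch of Rtl1 itself. Sequences are from RefSeq (GRCm38.p6), in which all 10 genes were found, and capitals mark the seed.
miR-431-5p: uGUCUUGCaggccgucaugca
miR-431-3p: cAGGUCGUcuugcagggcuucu
miR-433-5p: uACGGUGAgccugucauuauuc
miR-433-3p: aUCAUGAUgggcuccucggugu
miR-127-5p: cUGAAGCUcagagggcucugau
miR-127-3p: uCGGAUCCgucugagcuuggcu
miR-434-5p: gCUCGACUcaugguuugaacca
miR-434-3p: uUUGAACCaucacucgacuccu

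The Rtl1 messenger (transcript Rtl1-201, 6358 bases, coding part 148 to 5379) holds a full complement of each of these 8 mature miRNAs, which follows from their place on its opposite strand. No other GENCODE transcript holds 1 of them. The matching stretches are shown for the more abundant pair, Mir431 and Mir127, as Rtl1 bases on the minus strand of chromosome 12, with the bases that face the seed in capitals.
site of miR-431-5p, chr12:109590459-109590479: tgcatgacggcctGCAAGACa
site of miR-431-3p, chr12:109590502-109590523: agaagccctgcaagACGACCTg
site of miR-127-5p, chr12:109592854-109592875: atcagagccctctgAGCTTCAg
site of miR-127-3p, chr12:109592888-109592909: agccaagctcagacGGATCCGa
The sites run along the coding sequence in the reverse order of the miRNA genes, from those of Mir434 at transcript bases 965 to 1023 to those of Mir431 at bases 5028 to 5092. The sites of Mir127 lie at bases 2642 to 2697 and those of Mir433 at bases 3749 to 3822. The next closest match to a mature miRNA elsewhere in Rtl1 had 5 mismatches for either arm of Mir431, 7 and 9 for the arms of Mir433, and 8 for either arm of Mir127. For Mir434 it had 2 mismatches (miR-434-5p) and 3 (miR-434-3p).

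**Figure D1:**
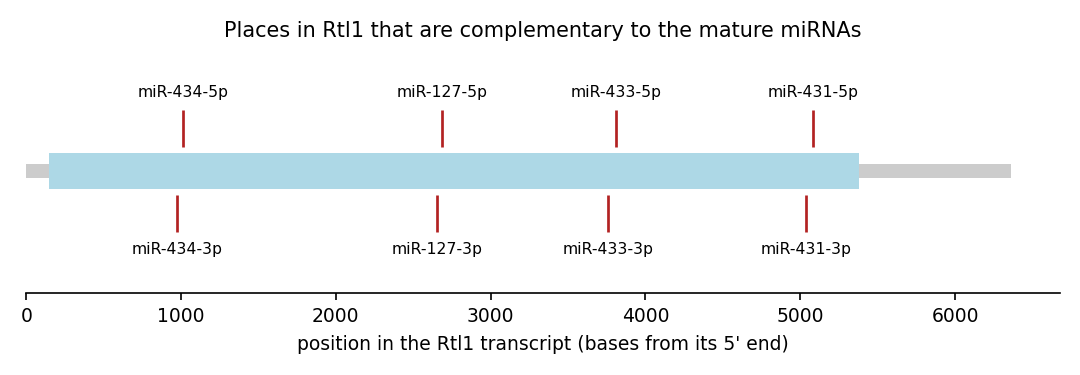
Places in the Rtl1-201 transcript, in bases from its 5' end, that are the full complement of a mature miRNA. The wide bar is the coding part (148 to 5379) and the narrow bar the rest of the 6358 bases. All 8 places fall in the coding part, in 4 pairs of arms.

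The hairpin of Mir434 holds a repeat, in which the arms share the run UUUGAACCA. Whether its near matches in Rtl1 lie in this repeat was not examined. The arms of Mir431 likewise share the run GUCUUGCAGG. A shared run of 9 bases or more was found in 9 of 677 hairpins with both arms in the table (1.33%), where the median was 4 bases. These hairpins are printed with their mature arms in capitals.
Mir431 hairpin: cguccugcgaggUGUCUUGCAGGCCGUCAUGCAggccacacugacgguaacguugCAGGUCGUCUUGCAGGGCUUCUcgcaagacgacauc
Mir434 hairpin: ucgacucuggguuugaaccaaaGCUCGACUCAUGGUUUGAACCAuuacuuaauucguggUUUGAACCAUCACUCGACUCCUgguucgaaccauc

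The 10 genes encode 20 mature miRNAs with 20 distinct seeds, so no seed is shared within the group. Of these, 3 share their seed with a miRNA of another gene (15.0%), against 32.0% of the 1738 mature miRNAs in the table. The partner of miR-370-5p lies in the same locus, in Mir1193, and the pair is shown for comparison.
miR-370-5p: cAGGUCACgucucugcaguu
miR-1193-3p: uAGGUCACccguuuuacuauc
Levels are in CPM, which scale each library to the same total of miRNA gene counts. Mir370 stood at 1379 CPM in replicate 1 and 1317 CPM in replicate 2, against 2718 and 2313 CPM for Mir1193. The other pairs were miR-673-5p with miR-6985-3p, whose gene Mir6985 had no count in replicate 1 and 0.771 CPM in replicate 2, and miR-540-3p with miR-6915-5p, whose gene has no row. No hairpin of the 10 shares a stretch of 20 bases with another miRNA hairpin. Matches elsewhere in the genome were not searched.

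The E11.5 forebrain libraries contained RNA of all 10 genes, and the genes at Rtl1 made up most of it. CPM were taken from the counts on the strand of the gene, over all miRNA genes of a library, and every count is of a whole hairpin gene, so the arms cannot be told apart. Reads cover a mature miRNA of similar length for every gene, so CPM was not divided by length. The libraries held 1281201 (replicate 1) and 1297647 (replicate 2) such counts, at which 3 counts correspond to 2.34 and 2.31 CPM. The 10 genes took 3.01% of the counts in replicate 1 (38550 counts, 95% Wilson interval 2.98 to 3.04%) and 2.76% in replicate 2 (35753 counts, 2.73 to 2.78%), or 2.88% ± 0.179 (SD, n = 2, as for every ± below). All 10 had 2 CPM or more in both libraries, as did 424 of the 1973 miRNA genes (21.5%), while 1288 genes had no count in either library. The median of the 10 was 1622 ± 43.4 CPM. In bulk tissue, a level cannot be divided into the number of cells that make a miRNA and the amount in each cell.

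**Figure D2:**
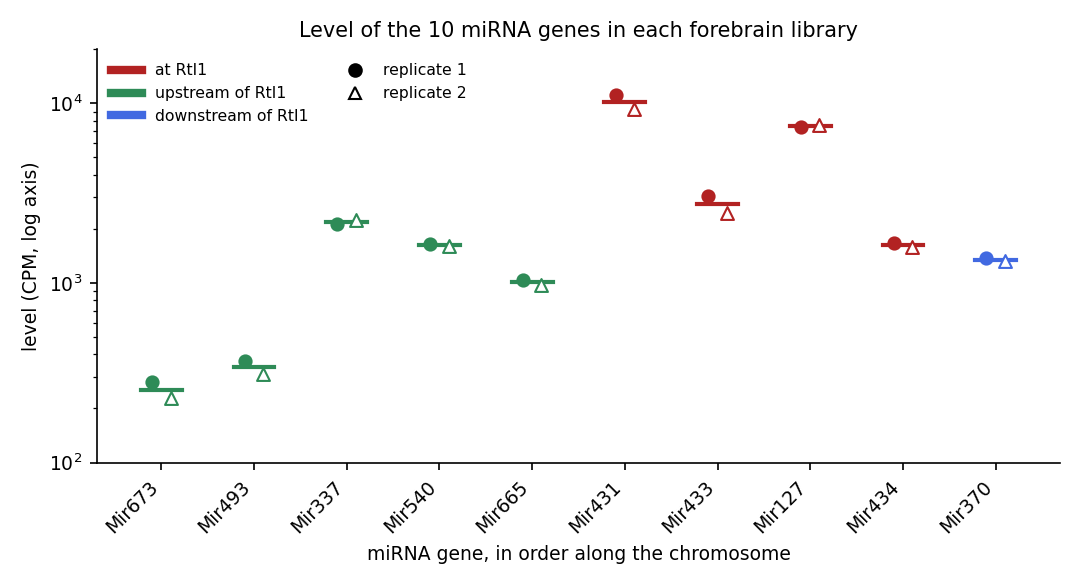
Level (CPM, log axis) of the 10 genes in order along the chromosome. Filled circles are replicate 1, open triangles replicate 2 and bars their mean. Mir431 and Mir127 stand highest, at means of 10211 and 7468 CPM, and Mir673 and Mir493 lowest, at means of 255 and 339 CPM.

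Mir431 was the most abundant, with 11171 CPM (14312 counts) in replicate 1 and 9251 CPM (12005 counts) in replicate 2, a mean of 10211 ± 1357 CPM. In mice, miR-431 is known to promote the regrowth of axons of sensory neurons by repressing Kremen1, an inhibitor of Wnt signalling. It ranked 25th of all miRNA genes by mean level, at place 22 in replicate 1 and 31 in replicate 2, between Mir130b (10237 ± 938 CPM) and Mir30a (10070 ± 334 CPM). Neither neighbour was separated from Mir431 by more than the spread of its libraries.

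Mir127 followed with 7353 CPM in replicate 1 and 7583 CPM in replicate 2 (7468 ± 162 CPM), rank 38. miR-127 is known for repressing BCL6 in human cells and for its full match to Rtl1. Mir431 exceeded Mir127 by 0.60 on the log2 scale in replicate 1 and by 0.29 in replicate 2, a mean ratio of 1.36-fold. Together, Mir431 and Mir127 gave 61.3% ± 0.328 of the counts of the 10 genes.

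The other genes at Rtl1 were lower. Mir433, whose miRNA is known in human cells for repressing the growth factor FGF20, gave 3067 CPM in replicate 1 and 2460 CPM in replicate 2 (2763 ± 429 CPM, rank 69). Mir434 had 1667 and 1584 CPM in replicates 1 and 2 (1626 ± 58.5 CPM, rank 90). Mir431, Mir433, Mir127 and Mir434, which share the coding exon of Rtl1, therefore spanned from 1626 to 10211 CPM by mean. This range leaves out other rows within Rtl1, among them Mir432 (0 CPM) and Mir3071 (402 CPM by mean).

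Among the genes upstream of Rtl1, the 3 that stand close together were higher than the outer ones. Mir337 stood at 2125 CPM in replicate 1 and 2239 CPM in replicate 2 (2182 ± 80.7 CPM, rank 81), Mir540 had 1639 and 1599 CPM (1619 ± 28.3 CPM, rank 91), and Mir665 had 1042 and 978 CPM (1010 ± 45.3 CPM, rank 112). Mir493 reached 367 CPM in replicate 1 and 311 CPM in replicate 2 (339 ± 39.3 CPM, rank 162). Mir673, the gene next to Meg3, was the lowest of the 10, with 279 CPM in replicate 1 and 230 CPM in replicate 2 (255 ± 35.2 CPM, rank 179). Even so, its 358 and 298 counts stand far above the 3 counts used as a floor.

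Mir370, the only one of the 10 inside Rian, gave 1379 CPM in replicate 1 and 1317 CPM in replicate 2 (1348 ± 44.0 CPM, rank 100). miR-370 is known for repressing CPT1A, an enzyme of fatty acid oxidation, in human liver cells. Its level fell between those of Mir540 and Mir665.

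Ordered by mean level, the 10 genes ran Mir431, Mir127, Mir433, Mir337, Mir434, Mir540, Mir370, Mir665, Mir493 and Mir673. Of the 9 pairs of neighbours in this order, 8 stood in the same order in both libraries and further apart than the sum of their SDs. The exception was Mir434 with Mir540, whose log2 ratio was 0.02 in replicate 1 and -0.01 in replicate 2. The widest steps were from Mir127 to Mir433 (2.72-fold) and from Mir665 to Mir493 (2.99-fold). Mir433 exceeded Mir337 by only 0.14 on the log2 scale in replicate 2, against 0.53 in replicate 1. Differences between miRNAs in how well their ends are ligated during library preparation were not measured here and also enter such an order.

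**Figure D3:**
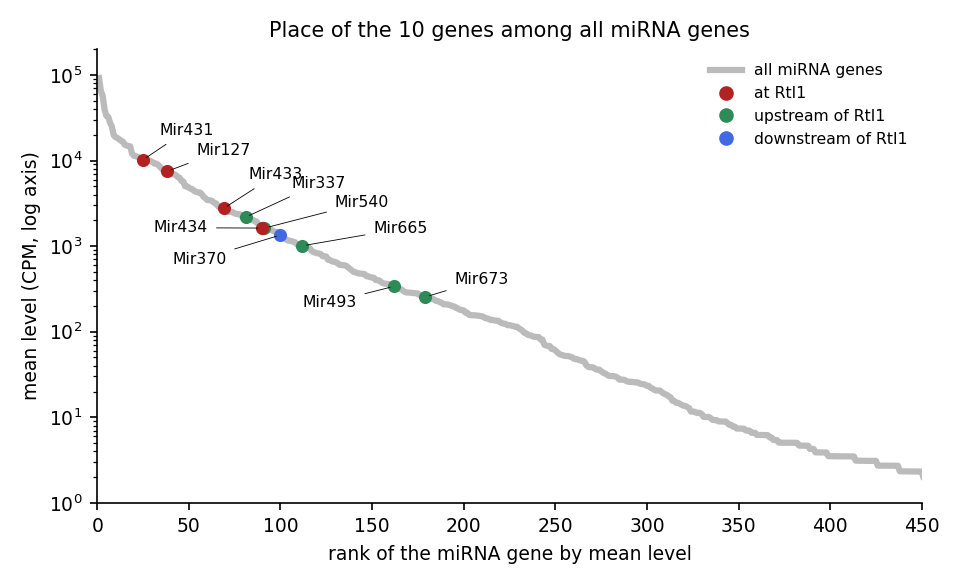
Mean level (CPM, log axis) of the miRNA genes against their rank, with the 10 genes as coloured points. They lie between rank 25 (Mir431) and rank 179 (Mir673), on the upper part of the curve.

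By position, those of the 10 genes at Rtl1 gave 2.33% of all counts in replicate 1 and 2.09% in replicate 2. The 5 upstream of Rtl1 gave 0.545% and 0.536%. Other rows at these places were left out of the sums and medians below. Among them are Mir432 and Mir3071 within Rtl1, and Mir3070a and Mir3070b between Mir665 and Rtl1. The summed level was 22068 ± 1682 CPM at Rtl1 and 5404 ± 67.4 CPM upstream. The log2 ratio of these sums was 2.09 in replicate 1 and 1.96 in replicate 2 (2.03 ± 0.09, 4.08-fold). With the median gene of each group, 5116 ± 133 CPM at Rtl1 and 1010 ± 45.3 CPM upstream, the log2 ratio was 2.34 ± 0.03. The genes at Rtl1 held 76.5% ± 1.07 of the counts of the 10 genes and the upstream genes 18.8% ± 0.935.

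**Figure D4:**
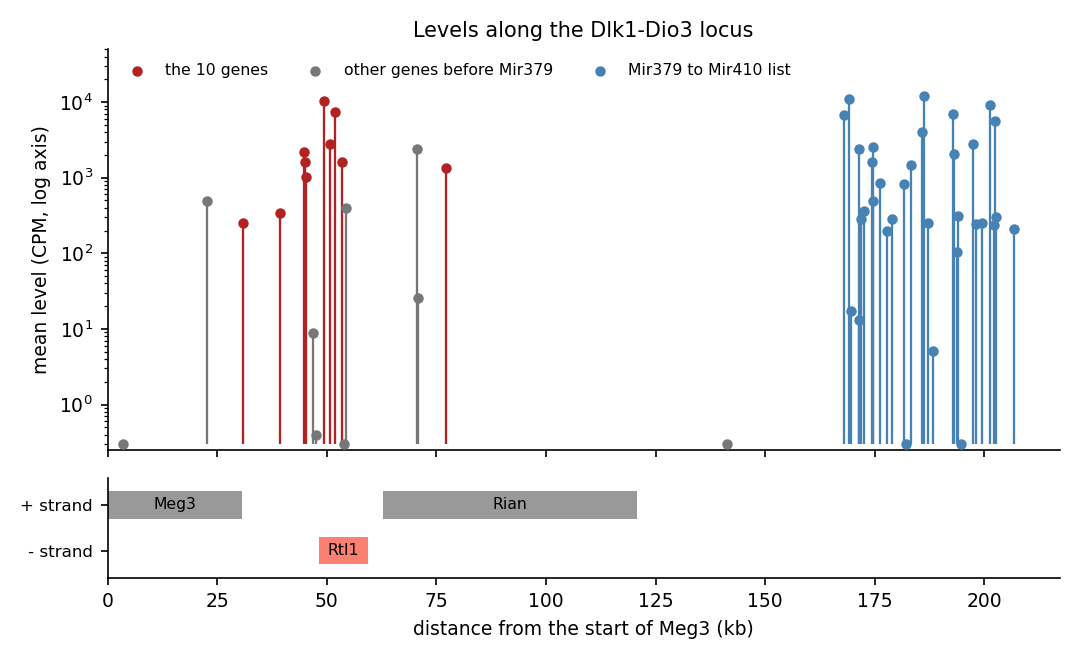
Mean level (CPM, log axis) of miRNA genes against distance from the start of Meg3 (kb), with the host genes Meg3, Rtl1 and Rian below by strand. Points on the lower edge have no count in either library. The highest of the 10 genes (red) stand over Rtl1, and the Mir379 to Mir410 genes (blue) begin after Rian.

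The other miRNA genes before Mir379 spanned a wide range. Of 11 such genes, 9 had a row and 5 reached 2 CPM in both libraries. Mir341, in Rian, had 2421 ± 57.1 CPM, more than Mir370, and Mir770, in Meg3, had 495 ± 33.0 CPM, between Mir665 and Mir493. The row Mir3071 had 402 ± 4.72 CPM (519 and 517 counts in replicates 1 and 2). GENCODE M21 puts Mir3071 on the minus strand over Mir136, which has no row, and the strand used for the counts was not given, so these counts cannot be assigned to 1 of the pair. Mir1188 had 25.6 ± 0.866 CPM and Mir3070a 8.91 ± 2.66 CPM, Mir3070b had 1 count in replicate 1 and 0 in replicate 2, and Mir432, Mir882 and Mir1906-1 had no count.

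The large cluster from Mir379 to Mir410, transcribed from the same strand, is the closest group for comparison. It was taken as a fixed list with 33 rows. That list includes Mir299b, annotated on the strand opposite to Mir299a, and Mir3072, which starts beyond Mir410. It lacks Mir666, a gene of the cluster with 250 and 211 counts in replicates 1 and 2. The 10 genes gave 3.01% and 2.76% of the counts in replicates 1 and 2, and the 33 rows of that list 7.52% and 7.29%. The log2 ratio of the sums was -1.32 in replicate 1 and -1.40 in replicate 2 (-1.36 ± 0.06). The median gene, however, was higher among the 10 genes, at 1622 ± 43.4 CPM, than among the 33, at 364 ± 47.7 CPM, which turns the log2 ratio to 2.16 ± 0.15. All of the 10 genes and 31 of the 33 reached 2 CPM in both libraries, and Mir654 and Mir453 of the cluster had no count. The highest gene of the cluster, Mir487b, had 12059 ± 47.5 CPM, above Mir431 in both libraries and by more than the sum of their SDs. Of the 52 rows in the lists for the locus, Mir431 ranked 3rd, Mir127 5th, Mir433 11th and Mir673 35th. The 10 genes held 27.1% ± 0.822 of the counts of these rows. Opposite-strand counts over 4 cluster genes without a row, 28880 in replicate 1 and 25086 in replicate 2, do not enter these ranks or this share. Those over Mir409 were 12924 and 9622, against 9421 and 9840 counts of Mir127. For 5 genes of the cluster (Mir487b, Mir411, Mir758, Mir376c and Mir299b), reads shared with a similar hairpin may be missing. Without these genes the log2 ratio of the sums was -0.79. That value leaves out the highest genes of the cluster, Mir487b and Mir411 (11084 CPM), and does not restore missing reads, which would lower the ratio.

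Between the libraries, the 10 genes differed little in size. Each gene with 10 counts or more over both libraries was compared by a two-sided exact binomial test against the library totals, with Benjamini-Hochberg adjustment over 398 genes and a threshold of 0.05. The test sees counting error alone. It called 113 of the 398 genes (28.4%), of which 82 were higher in replicate 1 (20.6%) and 31 lower (7.79%), and 11 by 2-fold or more (2.76%). Of the 10 genes it called 3 higher in replicate 1, none lower and none by 2-fold. The median log2 ratio, replicate 1 over replicate 2, was 0.08 for the 10 genes and 0.07 for all genes tested.

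Mir433 had the largest ratio of the 10, at 0.32 (95% Clopper-Pearson interval 0.25 to 0.39, adjusted p = 2.92e-19, exact binomial test). Mir431 had 0.27 (0.24 to 0.31, adjusted p = 6.83e-51, exact binomial test). Both are genes at Rtl1 and both also passed under TMM and DESeq2 scaling, where 13.1% and 15.3% of the 398 genes were called higher. Mir673 had 0.28 (0.06 to 0.51, adjusted p = 0.0450, exact binomial test) but did not pass under either scaling, where its adjusted p was 0.183 (TMM) and 0.130 (DESeq2).

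Mir127 and Mir337 stood on the other side, with ratios of -0.04 (-0.09 to -0.0035, adjusted p = 0.0971, exact binomial test) and -0.08 (-0.15 to 0.00, adjusted p = 0.140, exact binomial test). TMM scaling shifts every log2 ratio down by 0.07, and both were then called lower in replicate 1, at -0.12 (adjusted p = 2.39e-07) and -0.15 (adjusted p = 0.00080). The share of all tested genes called lower also grew, to 54 of 398 (13.6%) under TMM and 49 of 398 (12.3%) under DESeq2 scaling. Within the coding exon of Rtl1, the counting intervals of Mir431 and Mir433 did not overlap that of Mir127. A difference between the genes in this ratio was not tested, and how often intervals of other genes fail to overlap was not counted. The other ratios were 0.24 for Mir493, 0.09 for Mir665, 0.07 for Mir434, 0.07 for Mir370 and 0.04 for Mir540, none of which passed. With TMM scaling the sign turned for Mir370 (-0.01) and Mir540 (-0.04), and with DESeq2 scaling for Mir540 (-0.01).

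With an assumed spread between libraries, no call was left among the 10 genes. The edgeR common coefficient of variation was 10.3%, estimated from these same libraries as replicates of the group. It therefore holds the very difference that is tested. In edgeR's exact test with a coefficient of variation of 0.1, 0 of the 10 genes passed, and 0 had an unadjusted p under 0.05, against 8 (2.01%) and 21 of all 398 genes. Mir433 had the smallest unadjusted p of the 10 there, 0.125.

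**Figure D5:**
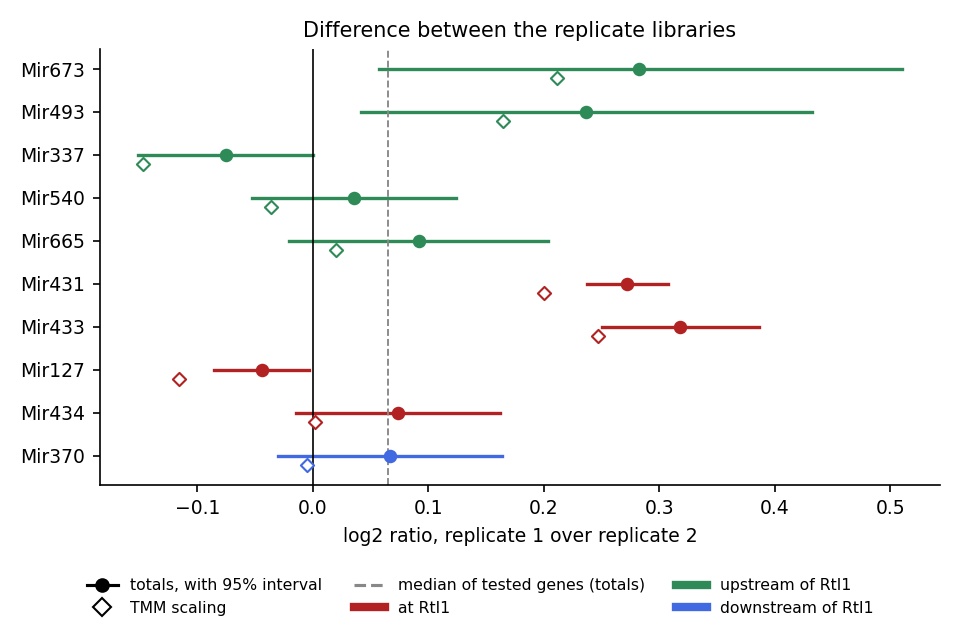
Log2 ratio of replicate 1 over replicate 2 for the 10 genes. Filled circles with 95% Clopper-Pearson intervals use library totals, open diamonds TMM scaling, and the dashed line is the median of the 398 genes tested. Mir431, Mir433, Mir493 and Mir673 lie right of the dashed line with either scaling, and Mir127 and Mir337 left of 0.

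The tissue label was checked on marker miRNAs, whose part in the ratios above was not tested. Neural markers took 4.15% of the counts in replicate 1 and 3.57% in replicate 2, with 12 of 13 rows at 2 CPM or more in both. Mir92b (17079 CPM by mean) and Mir149 (14979 CPM) were the highest of them, and their median was 189 CPM. Mir124a-1, Mir124a-2 and Mir124a-3 had only 1.56, 20.5 and 3.49 CPM. Mir9-2 had 8.16 CPM, Mir9-3 had 479 CPM and Mir9-1 has no row. Multimapping reads, 41.7% and 39.1% of mapped reads in replicates 1 and 2, are not in these counts. Markers with several gene copies, such as Mir9 and Mir124a, can therefore read too low, and their values do not give the level of the miRNA. The endothelial marker Mir126a took 3.46% and 3.03%, and 6 mesenchymal markers 1.92% and 1.73%. The 3 erythroid markers summed to 0.0606% and 0.0371%, 3 leukocyte markers to 0.0759% and 0.0761%, and the 2 liver markers to 0.0116% and 0.00855%. Of 4 striated muscle markers, Mir1a-1, Mir133a-1 and Mir133a-2 had no count, and Mir206 had 9 and 4 counts in replicates 1 and 2. The 3 without a count are also gene copies, so this does not show a lack of their miRNAs. Markers of the Hox loci, which are silent in the forebrain proper, summed to 0.0198% and 0.00755%, with 1 of 5, again a gene copy, at 0.

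Among the 10 genes, counts on the strand opposite to the gene, which at Rtl1 is the strand of Rtl1 itself, came only from Mir337. The 9 other genes had 0 such counts of 35828 in replicate 1 and 0 of 32848 in replicate 2, which allows a share of up to 0.00837% and 0.00913%. This includes Mir431, Mir433, Mir127 and Mir434 at Rtl1. Mir337 had 9 opposite-strand counts of 2731 in replicate 1 (0.330%, Wilson interval 0.173 to 0.625%) and 15 of 2920 in replicate 2 (0.514%, 0.312 to 0.846%). Of the 398 genes tested, 23 in replicate 1 (5.78%) and 24 in replicate 2 (6.03%) had any. The place is also annotated on the minus strand, as Mir3544 at 109585813-109585873, a miRNA gene with no row, which holds the full complement of both arms of Mir337. The Mir337 hairpin is printed for that reason, with its arms in capitals.
Mir337 hairpin: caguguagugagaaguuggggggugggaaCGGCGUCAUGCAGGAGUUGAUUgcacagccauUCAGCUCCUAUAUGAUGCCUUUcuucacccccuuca
The libraries are of short RNA, so a lack of opposite-strand counts says nothing of the level of the Rtl1 messenger.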

How the data were processed

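The authors aligned reads to mm10 and counted them per miRNA gene of GENCODE M4, per the labels and the deposited text notes. Which aligner and counter they used is not given in the sources used. Each deposited table holds raw counts for both strands together, the strand of the gene and the opposite strand. The first 4 rows (unmapped, multimapping, no feature, ambiguous) were kept out of totals and tests; multimapping reads were 41.7% (replicate 1) and 39.1% (replicate 2) of mapped reads. Of 1973 identifiers, 1894 were found in GENCODE M21, which gave symbols and mm10 positions; annotation M4 was not used here. The genes, lists and rule for named genes (all 10 genes, plus fixed lists of neighbours) were chosen with earlier results of these data known. Mir130b and Mir30a are the rank neighbours. Mir1193, Mir6985, Mir654, Mir453, Mir411, Mir758, Mir376c, Mir299a, Mir299b, Mir3072, Mir666 and Mir409 were named outside the rule. So were the single neural and striated muscle markers.

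CPM are sense counts over the total of all gene rows. Log2 ratios between libraries had 0.5 counts added. With 1 group, no test between conditions exists. The binomial test was checked on simulated counts. Intervals and floors cover counting error only. Alternatives were other totals, TMM and DESeq2 scaling, edgeR's exact test at assumed coefficients of variation of 0.1 and 0.2, filters on low counts, unstranded counts, medians and leaving out each library. Mature sequences were matched whole against GENCODE transcripts. Tools were Python 3.11.15, pandas 2.3.3, numpy 2.4.6, scipy 1.17.1, R 4.3.3, edgeR 4.0.16 and DESeq2 1.42.0.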

Additional observations from a re-analysis of the deposited data

Results flagged for a closer look

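Mir337 was singled out because it had counts on the strand opposite to the gene, a column that no level above uses. These were 9 counts in replicate 1 and 15 counts in replicate 2, above the 3 counts taken as the floor, while the 9 other genes had 0 in either library. No cause was tested.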

How the results depend on the processing

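All 10 genes kept 2 CPM or more, and 8 of 9 neighbour pairs stayed apart, under each alternative run. The summed share of 2.88% was 2.33% of all uniquely mapped reads and 4.89% without the 10 most abundant genes, since these change the total, and 2.76 to 3.01% leaving out either library. Among the 10 genes, the log2 ratio of those at Rtl1 to those upstream was 2.34 with medians and 1.96 to 2.09 leaving out either library. Against the Mir379 to Mir410 cluster, -1.36 became -1.43 with unstranded counts. It was -0.79 without genes that share hairpin stretches, which leaves out Mir487b and Mir411. It was -1.72 with opposite-strand counts added for 4 cluster genes without a row, an alternative chosen after seeing the data, and it reversed to 2.16 with medians, which do not grow with the number of genes. It was -1.40 to -1.32 leaving out either library. Genes called lower in replicate 1 were 2 with TMM and 2 with DESeq2 scaling in place of 0, beside 13.6% and 12.3% of all tested genes in place of 7.79%. Genes called higher were 0 with edgeR at either assumed coefficient of variation, where ratios of this size cannot pass, and 0 with a 2-fold minimum in place of 3. With a filter of 50 counts 4 were called higher, Mir493 among them, beside 27.9% of all tested genes. With no filter on low counts 2 were called higher, Mir673 no longer among them, beside 11.5%. The median log2 ratio was 0.011 (TMM) and 0.033 (DESeq2) in place of 0.082. The opposite-strand share was 0.0233 to 0.0419% leaving out either library. No paired analysis was possible because the libraries form 1 group.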
